A study of Mus musculus with 9 samples.

Results

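Fatty acid oxidation in mitochondria and peroxisomes was followed through a list of 32 genes in the abdominal aorta of B-cell-deficient mice. The genes were taken by name among the non-control probes of the arrays, each through its brightest probe, and all 32 passed the filter on dim probes, out of 16621 genes tested. Aortic RNA from 9 samples, 3 per group, was hybridised to 1-colour Agilent arrays, each to its own. Every mouse was of the uMT genotype on the C57BL/6 strain, so the sham group, too, had no mature B cells, and no wild-type group was compared here. In uMT_Ca+IgG, 0.5 M CaCl2 was applied around the aorta and mouse polyclonal IgG was injected intraperitoneally. In uMT_Ca, CaCl2 was applied with no IgG. In uMT_sham, physiological saline was applied in place of CaCl2. Aortas of the CaCl2 mice were taken 7 days after the challenge, while the age of the mice, the IgG dose and the day on which sham aortas were taken are not stated in the labels. The comparisons address what CaCl2 does to the aortic transcriptome when B cells are missing, and what returning immunoglobulin changes.

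Long-chain fatty acids are first coupled to coenzyme A, then carried across the inner mitochondrial membrane as carnitine esters, and then shortened in repeated cycles of dehydrogenation, hydration, a further dehydrogenation and thiolytic cleavage. The electrons pass through the electron transfer flavoprotein to the respiratory chain, whereas the peroxisome runs a related cycle on very-long-chain and branched substrates and makes hydrogen peroxide. Many of these genes are targets of the peroxisome proliferator-activated receptors, PPAR alpha and PPAR delta, and contractile muscle and macrophages both use the pathway.

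RefSeq promoter windows of mouse build GRCm38.p6, from 250 bases before to 50 after an annotated start, were at hand for 25 of the 32 members, in 26 windows. They were searched on both strands for the direct repeat that PPAR binds with its partner RXR, spelled AGGTCA, any 1 base, and AGGTCA again. The exact repeat stood in 0 of the 26 member windows and in 0.0396% of all 32851 windows. With up to 2 mismatches, a search added after the exact one was seen, it stood in 3 member windows (11.5%) and in 3.86% of all windows. The single AGGTCA motif, counted whether or not it lay in a repeat, stood in 4 member windows (15.4%) and in 16.3% of all windows. The 4 were those of Cpt1a, Acadvl, Acadm and Echs1, and in Echs1 the motif was the start of the repeat with mismatches. Slc25a20 and Acsl1 are shown because they had the largest rise and the largest called fall of the list after CaCl2, Acadvl for its single motif, and Etfa and Echs1 for the repeat with mismatches. In the window of Slc25a20 the repeat began 6 bases after the annotated start, and in those of Etfa and Echs1 it began 77 and 83 bases before it. Capitals mark the repeat or the single motif, and the Acsl1 window shown, which has neither, is in lower case throughout. The other Acsl1 window, at another annotated start, has neither as well and is not shown. Hadha and Hadhb, the 2 subunits of the trifunctional protein, are transcribed away from each other, and in the Hadha window capitals mark instead the 228 bases that it shares with the Hadhb window on the opposite strand.
Slc25a20 (chr9:108661886-108662185, plus strand): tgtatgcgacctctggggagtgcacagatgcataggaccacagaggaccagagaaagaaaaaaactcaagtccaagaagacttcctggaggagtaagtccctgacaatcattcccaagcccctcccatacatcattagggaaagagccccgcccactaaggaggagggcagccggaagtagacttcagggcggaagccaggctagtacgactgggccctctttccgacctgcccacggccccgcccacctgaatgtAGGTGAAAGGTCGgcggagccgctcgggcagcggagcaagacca
Acsl1 (chr8:46470787-46471086, plus strand): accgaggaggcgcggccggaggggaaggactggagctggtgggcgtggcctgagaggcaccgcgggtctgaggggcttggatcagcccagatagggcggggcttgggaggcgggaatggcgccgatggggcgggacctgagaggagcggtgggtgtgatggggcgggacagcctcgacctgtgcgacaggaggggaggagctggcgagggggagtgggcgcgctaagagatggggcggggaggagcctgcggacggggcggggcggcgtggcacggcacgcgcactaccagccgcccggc
Acadvl (chr11:70015379-70015678, minus strand): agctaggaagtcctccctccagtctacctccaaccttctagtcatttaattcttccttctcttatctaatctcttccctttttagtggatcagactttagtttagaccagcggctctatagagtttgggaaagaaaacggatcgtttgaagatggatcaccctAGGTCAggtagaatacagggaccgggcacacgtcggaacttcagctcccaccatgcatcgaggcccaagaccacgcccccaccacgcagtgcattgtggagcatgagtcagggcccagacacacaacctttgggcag
Etfa (chr9:55512194-55512493, minus strand): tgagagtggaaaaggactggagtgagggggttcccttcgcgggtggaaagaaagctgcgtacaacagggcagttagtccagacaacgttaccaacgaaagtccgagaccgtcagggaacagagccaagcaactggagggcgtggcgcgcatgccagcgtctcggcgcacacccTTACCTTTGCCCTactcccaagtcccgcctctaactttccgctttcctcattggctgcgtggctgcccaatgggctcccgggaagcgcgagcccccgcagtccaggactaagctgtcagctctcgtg
Echs1 (chr7:140116372-140116671, minus strand): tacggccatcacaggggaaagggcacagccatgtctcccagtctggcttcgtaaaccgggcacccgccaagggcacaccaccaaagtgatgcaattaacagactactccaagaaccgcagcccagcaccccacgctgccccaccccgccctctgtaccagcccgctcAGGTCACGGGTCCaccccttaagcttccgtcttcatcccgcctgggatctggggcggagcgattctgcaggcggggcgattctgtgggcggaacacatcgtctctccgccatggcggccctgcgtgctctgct
Hadha (chr5:30154931-30155230, minus strand): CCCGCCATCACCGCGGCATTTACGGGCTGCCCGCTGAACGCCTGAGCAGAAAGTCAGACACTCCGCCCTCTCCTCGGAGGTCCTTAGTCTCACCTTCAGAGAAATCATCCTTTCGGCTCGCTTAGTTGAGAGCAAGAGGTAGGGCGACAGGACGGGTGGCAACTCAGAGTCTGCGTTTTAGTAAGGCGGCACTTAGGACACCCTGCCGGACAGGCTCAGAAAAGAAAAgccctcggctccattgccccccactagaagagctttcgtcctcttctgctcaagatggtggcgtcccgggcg
A match describes letters in these windows and no more.

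Signals are given as log2 of the processed spot signal minus the 75th percentile of that array, so that 0 is the 75th percentile, and a change is a difference of such values. A gene was called where limma's moderated test gave a Benjamini-Hochberg adjusted p under 0.05 over all 16621 genes. Since no label says that the samples of a group came from separate mice, p-values measure only the spread among these samples, possibly a technical one. The share of spots well above background was 58.4% to 60.6% in uMT_Ca+IgG, 58.1% to 61.0% in uMT_Ca and 55.9% to 58.8% in uMT_sham. The 75th percentile of the signal lay at 270 to 455 in uMT_Ca+IgG, at 381 to 496 in uMT_Ca and at 267 to 302 in uMT_sham, while the median lay at 33.6 to 36.9 in uMT_Ca+IgG, at 29.6 to 38.0 in uMT_Ca and at 29.4 to 31.2 in uMT_sham. The 2 scalings therefore place the groups differently, and moving to the median added 0.47 to every log2 change of uMT_Ca against uMT_sham. One array, uMT_Ca+IgG replicate 3, stood apart: its mean correlation across probes with its own group was 0.959, against 0.973 and 0.975 for its companions, and its 75th percentile was 270 against 449 and 455. Of the 9 arrays, uMT_sham replicate 3 alone lay on a slide and a scan of its own, so leaving it out is the same fit as keeping to the slide of the other 8, and 21 distinct alternatives were run. Each of the 12 smooth muscle markers used to check the tissue was well above background on some or all arrays of every group.

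With arrays scaled to the 75th percentile, 10 of the 32 members passed the test after CaCl2. Acsl1, which couples long-chain fatty acids to coenzyme A, was 2.27-fold lower in uMT_Ca than in uMT_sham aortas. Ppara, the medium-chain and very-long-chain acyl-CoA dehydrogenases Acadm and Acadvl, the flavoprotein subunit Etfb, the hydroxyacyl dehydrogenase Hadh, the isomerase Ech1 and the peroxisomal enzyme Ehhadh also fell, by 0.48 to 0.74 on the log2 scale. The peroxisomal thiolase Acaa1a was 1.48-fold higher. Slc25a20, the carnitine-acylcarnitine carrier of the inner membrane, was also higher. Its probe was well above background on 1 of 3 sham arrays, so the size of its rise, given below on the log2 scale, is uncertain. In all, 8 members passed the test as lower, where 19% of all genes did, and 2 as higher, where 17.3% of all genes did. The share of members called lower was thus near the background, and the calls describe single genes rather than the list. The groups did not overlap for 22 of the 32 members, 16 lower and 6 higher in uMT_Ca, against 56.6% of all genes. The median change of the members was -0.27, beside -0.08 for all genes, and 24 of the 32 changes were below 0.

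Median scaling turned the sign of the members' median change, while each of the 10 members called with the 75th percentile kept its sign. The 8 called lower stayed below 0, from -0.71 for Acsl1 to -0.01 for Acadvl. Under median scaling the median change of the members in uMT_Ca against uMT_sham was 0.20, with 22 of 32 changes above 0. The median of all genes was 0.39. No member passed as lower, where 6.55% of all genes did, and 3 members passed as higher, Slc25a20, Acox3 and Acaa1a, where 22.1% of all genes did. Over all genes 2883 were called higher and 3165 lower with the 75th percentile, against 3678 higher and 1088 lower with the median. The members' median minus that of all genes was -0.19 under either scaling, a gap that a constant added to each array cannot change, with 22 members below the median of all genes and 10 above it. That gap was -0.27 with quantile normalization and -0.10 with the normexp background. With no filter on dim probes it turned to 0.06, since the median of all 24096 genes was then -0.32 and that of the members stayed at -0.27. With the slide row as a block, a term that separates the 3 uMT_Ca arrays from 2 of the 3 uMT_sham arrays, 3 members were called, Slc25a20, Acsl1 and Ppara. Leaving out uMT_sham replicate 2 or 3 left 4 or 5 calls, and leaving out any 1 of the 3 uMT_Ca arrays left 6. The calls over all genes fell as well in these fits, from 6048 to 3408 with the slide row as a block. They fell to 4315 and 3921 without uMT_sham replicate 2 or 3. Without uMT_Ca replicate 1, 2 or 3 they numbered 4006, 5034 and 4074.

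**Figure D1:**
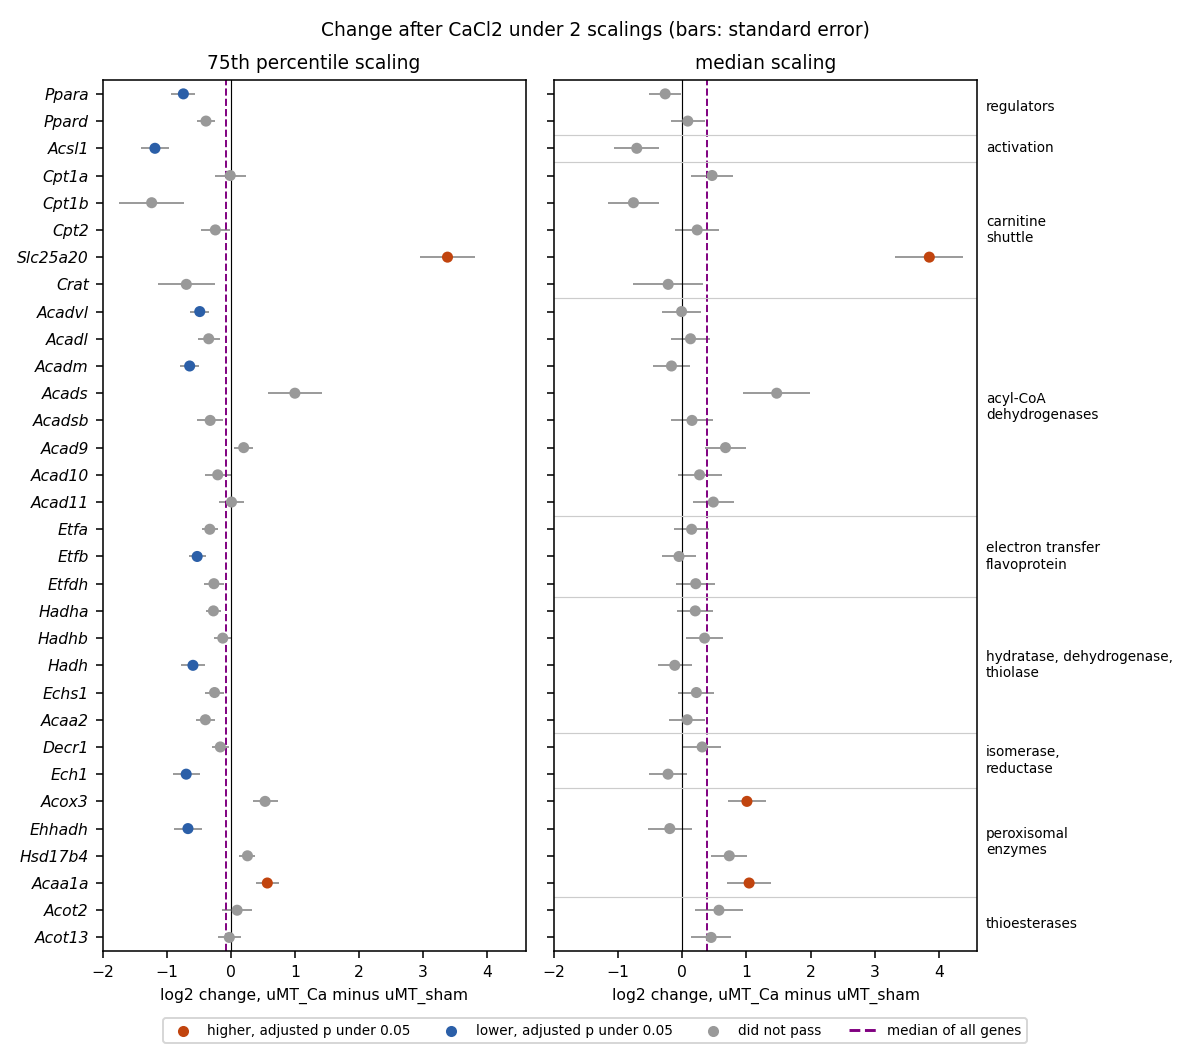
Log2 change of each of the 32 members in uMT_Ca against uMT_sham (x axis, bars are standard errors), with arrays scaled to the 75th percentile on the left and to the median on the right; the dashed line is the median of all genes, at -0.08 on the left and 0.39 on the right. Blue and red points passed the test as lower and higher: 8 and 2 members on the left, 0 and 3 on the right.

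Among the regulators, Ppara encodes PPAR alpha, the receptor that induces fatty acid oxidation genes in liver and muscle. Its signal was -0.91, -0.89 and -0.73 in uMT_Ca aortas, against -0.34, -0.19 and 0.22 in uMT_sham aortas. All 3 uMT_Ca arrays lay below all 3 uMT_sham arrays, a change of -0.74 ± 0.19 (SE, n = 3 each, limma adjusted p = 0.0178), called in 17 of 21 alternatives. Its other 2 probes changed by -1.34 and -1.49, in the same direction, although 1 uMT_Ca array lay well above its companions on each of them. Ppard encodes PPAR delta, which is more widely expressed. Its signal was 0.48, 0.64 and 0.94 in uMT_Ca aortas, against 1.01, 1.14 and 1.08 in uMT_sham aortas. The groups did not overlap, but the change of -0.39 ± 0.14 did not pass the test (limma adjusted p = 0.0623, n = 3 each).

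Acsl1 gave the largest called fall of the list. Its signal was 2.21, 2.89 and 2.43 in uMT_Ca aortas, against 3.70, 3.92 and 3.46 in uMT_sham aortas. The groups were separate, with a change of -1.18 ± 0.22 (SE, n = 3 each, limma adjusted p = 0.00521), and the other Acsl1 probe changed by -1.56. Of 21 alternative settings, 19 kept the call. Under median scaling the change was -0.71 with an adjusted p of 0.142, and the call was also lost with no scaling.

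Within the carnitine shuttle 1 of 5 genes passed. Slc25a20 exchanges acylcarnitines for free carnitine across the inner membrane. Its signal was -0.40, -0.99 and -0.54 in uMT_Ca aortas, against -4.07, -4.13 and -3.85 in uMT_sham aortas. The probe was well above background on 3 of 3 uMT_Ca arrays but on 1 of 3 uMT_sham arrays, so the sham level is close to the limit of the measurement. The change was 3.38 ± 0.44 (SE, n = 3 each, limma adjusted p = 0.00118). The probe passed the filter only through the CaCl2 groups, where it was higher, and it was not tested where probes had to be well above background on all 9 arrays. With no filter on any probe its adjusted p was 0.00243. The size depended on how background was handled, since with the normexp background the change was 1.47. A single probe stands for this gene.

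Cpt1a and Cpt1b are the liver-type and muscle-type carnitine palmitoyltransferases of the outer membrane, the step at which malonyl-CoA limits entry. Cpt1a had 3.34, 2.49 and 3.27 in uMT_Ca aortas, against 2.85, 3.31 and 2.97 in uMT_sham aortas. These values overlapped throughout, and the change of -0.01 had a 95% interval of -0.56 to 0.54. The other Cpt1a probe, which was dimmer, disagreed. It had -0.25, -1.18 and -0.55 in uMT_Ca aortas, against -0.20, 0.14 and -0.15 in uMT_sham aortas, a difference of -0.59 without overlap. Cpt1b had -2.85, -3.49 and -3.06 in uMT_Ca aortas, against -2.54, -1.62 and -1.53 in uMT_sham aortas. All uMT_Ca values were below all uMT_sham values, yet the change of -1.23 ± 0.51 missed the threshold (limma adjusted p = 0.0889, n = 3 each). Its other probe changed by -1.27. Without uMT_Ca+IgG replicate 3, which enters the shared estimate of the spread, the adjusted p of Cpt1b was 0.0117.

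Cpt2, the inner-membrane transferase that returns the acyl group to coenzyme A, had 2.39, 2.09 and 1.68 in uMT_Ca aortas, against 2.35, 2.16 and 2.36 in uMT_sham aortas. The groups overlapped and the change of -0.24 ± 0.22 did not pass (limma adjusted p = 0.422). Crat, the carnitine acetyltransferase for short chains, changed by -0.69 ± 0.45 without overlap of the groups, and it did not pass either (adjusted p = 0.249). Crat was called lower in 3 of the 20 alternatives that tested it, among them the one without uMT_Ca+IgG replicate 3 (adjusted p = 0.0108).

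Each acyl-CoA dehydrogenase takes chains of a certain length or branching. Acadvl, for very long chains, had 4.30, 4.21 and 4.11 in uMT_Ca aortas, against 4.52, 4.88 and 4.66 in uMT_sham aortas. Acadm, for medium chains, had 3.55, 3.73 and 3.33 in uMT_Ca aortas, against 4.15, 4.32 and 4.06 in uMT_sham aortas. Neither gene overlapped between the groups, and the changes were -0.48 ± 0.15 for Acadvl (limma adjusted p = 0.0374) and -0.64 ± 0.14 for Acadm (limma adjusted p = 0.0108). The call of Acadm was kept in 18 of 21 alternatives and that of Acadvl in 12. Under median scaling both changes were near 0, at -0.17 for Acadm and -0.01 for Acadvl.

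Acads, for short chains, ran the other way, with -1.17, -1.13 and -1.10 in uMT_Ca aortas, against -1.95, -2.03 and -2.42 in uMT_sham aortas. The groups did not overlap, and the change of 1.00 ± 0.42 did not pass (limma adjusted p = 0.0916). Without uMT_Ca+IgG replicate 3 its adjusted p was 0.00165. The other 5 dehydrogenases, Acadl for long chains, Acadsb for branched short chains, Acad9, which also serves complex I assembly, Acad10 and Acad11, changed by -0.34 to 0.20 and none passed. The probes of Acadsb differed in size, as its other probe changed by -1.17, and with the mean of all kept probes Acadsb was called lower at -0.75 (limma adjusted p = 0.0290).

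The electron transfer flavoprotein carries electrons from all these dehydrogenases. Its subunit genes Etfa and Etfb changed by -0.33 ± 0.12 and -0.52 ± 0.13, and the gene of its membrane oxidoreductase, Etfdh, by -0.26 ± 0.15, while under median scaling these values were 0.14, -0.05 and 0.21. Etfb alone of the 3 passed (limma adjusted p = 0.0182), while Etfa also kept its groups apart (adjusted p = 0.0676). The other Etfa probe, which was dimmer, changed by -0.13 with overlapping groups. Etfb had 4.89, 4.58 and 4.88 in uMT_Ca aortas, against 5.31, 5.40 and 5.20 in uMT_sham aortas, so that every uMT_Ca array was lower. The call of Etfb was kept in 16 of 21 alternatives.

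Of the 5 genes for the enzymes that complete the mitochondrial cycle, all had changes below 0 with the 75th percentile, and Hadh alone had one below 0 with the median. Hadha, the hydratase and long-chain dehydrogenase subunit of the trifunctional protein, had 1.03, 0.90 and 0.92 in uMT_Ca aortas, against 1.12, 1.31 and 1.23 in uMT_sham aortas. The groups were apart by a small distance, and the change of -0.27 ± 0.12 did not pass (limma adjusted p = 0.110). Hadhb, the thiolase subunit that shares the promoter region shown above, changed by -0.13 ± 0.14, with overlap. Hadh, the short- and medium-chain dehydrogenase, passed at -0.59 ± 0.19 (adjusted p = 0.0382), whereas Echs1, the short-chain hydratase, at -0.25 and Acaa2, the mitochondrial thiolase, at -0.40 did not pass. Ech1 and Decr1 prepare unsaturated chains for the cycle. Ech1 changed by -0.70 ± 0.21 and passed (adjusted p = 0.0338), and Decr1 changed by -0.16 ± 0.14 and did not. The other Decr1 probe, which was dimmer, changed by -0.52, and neither Decr1 probe overlapped between the groups. The brighter probe was apart only narrowly, at 3.926 or less in uMT_Ca and 3.928 or more in uMT_sham. The call of Hadh was kept in 9 of 21 alternatives and that of Ech1 in 13. Median scaling, no scaling, quantile normalization, the authors' deposited table and the replicate block were among those that lost Hadh.

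Of the 4 peroxisomal genes 1 rose, 1 fell and 2 did not pass. Acaa1a, the thiolase, had 5.29, 5.44 and 5.39 in uMT_Ca aortas, against 4.74, 4.88 and 4.78 in uMT_sham aortas. Every uMT_Ca array was higher, with a change of 0.57 ± 0.18 (limma adjusted p = 0.0382). That call was kept in 12 of 21 alternatives, and it was lost with the replicate block, with the slide row as a block and on leaving out uMT_Ca+IgG replicate 2 or any 1 of the uMT_Ca or uMT_sham arrays. Ehhadh, the bifunctional enzyme of the PPAR alpha-inducible peroxisomal pathway, had -1.88, -1.40 and -1.95 in uMT_Ca aortas, against -0.79, -1.20 and -1.23 in uMT_sham aortas. It was lower without overlap, at -0.67 ± 0.22 (limma adjusted p = 0.0462), and its call was kept in 8 of 21 alternatives.

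Hsd17b4, the bifunctional enzyme for branched and very-long-chain substrates, changed by 0.26 ± 0.13 without overlap and did not pass. Acox3, an acyl-CoA oxidase for branched chains, had 1.59, 2.01 and 2.18 in uMT_Ca aortas, against 1.46, 1.44 and 1.29 in uMT_sham aortas. Its change of 0.54 ± 0.20 missed the threshold with the 75th percentile (limma adjusted p = 0.0621) and passed with the median, at 1.01 (adjusted p = 0.0251). Its 3 probes disagreed, since the other 2 changed by 0.32 and -0.999. The thioesterases Acot2 and Acot13, which free fatty acids from coenzyme A, changed by 0.10 and -0.02, with overlapping groups.

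**Figure D2:**
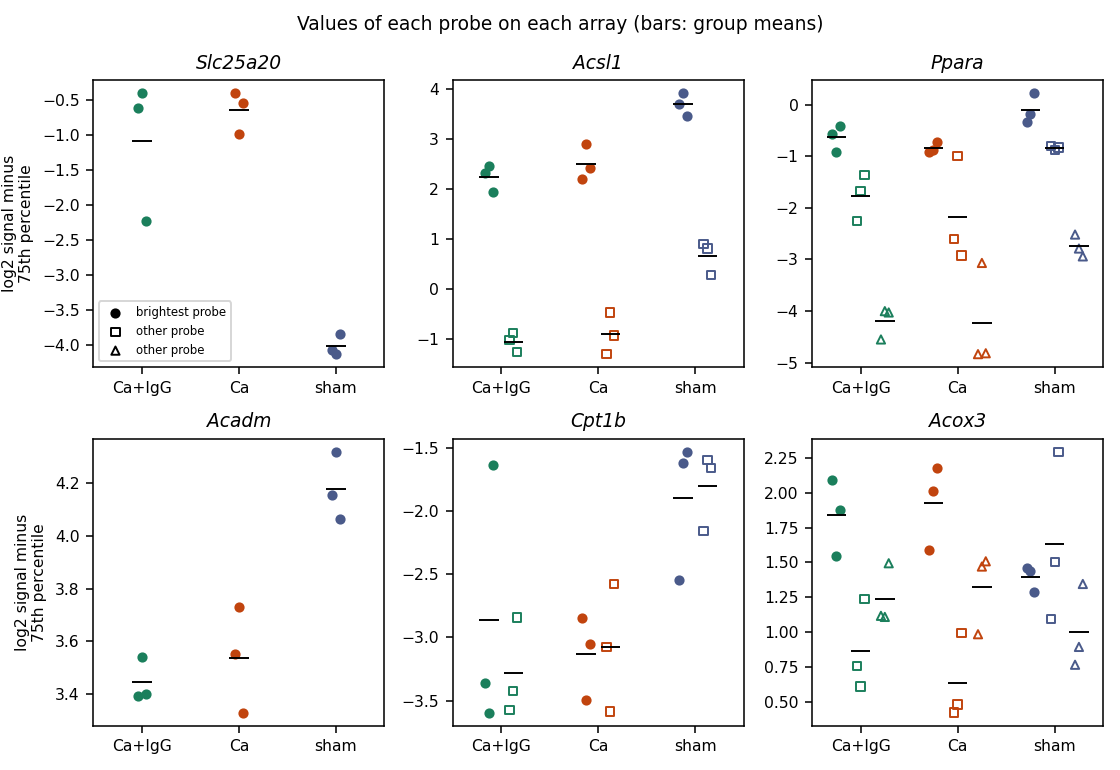
Log2 signal minus the 75th percentile of the array (y axis) for every probe of 6 members on each array, by group; filled circles are the brightest probe, open symbols other probes and bars group means. All probes of Acsl1, Ppara and Cpt1b had lower means in uMT_Ca than in uMT_sham, whereas the probes of Acox3 changed by 0.54, 0.32 and -0.999.

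Adding IgG to CaCl2 moved no member past the threshold. In uMT_Ca+IgG against uMT_Ca, 0 of 32 members and 0 of 16621 genes (0%) passed limma's test, and at an unadjusted p under 0.05 there were 0 members and 246 genes. The changes were centred on 0, with a median of 0.00 for the members and -0.01 for all genes, 17 above 0 and 15 below. The groups did not overlap for 0 members, against 5.04% of all genes. All 32 intervals of 95% held 0, and 28 of them lay within 1 log2 unit of it. The 4 wider ones were those of Slc25a20, Crat, Cpt1b and Acads, and together the intervals reached -1.53 for Acads and 1.44 for Cpt1b, so changes of that size lie inside the intervals. Under median scaling the median of the members was -0.23, beside -0.25 for all genes, and again no gene passed.

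**Figure D3:**
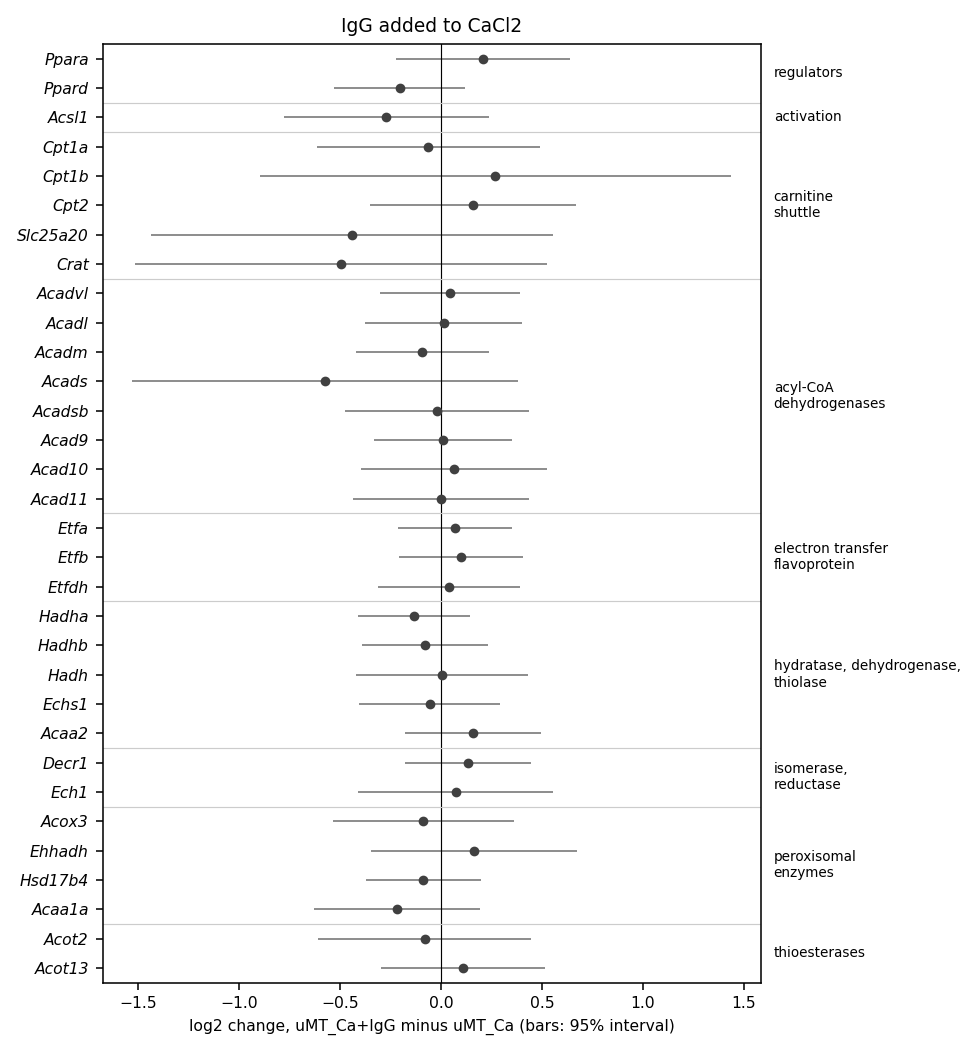
Log2 change of each member in uMT_Ca+IgG against uMT_Ca (points) with its 95% interval from limma (bars), 3 arrays per group. Every interval crosses 0, and those of Slc25a20, Crat, Cpt1b and Acads extend past 1 log2 unit.

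On the array that stood apart, uMT_Ca+IgG replicate 3, those 4 genes lay away from the companion arrays. Slc25a20 had -0.61, -0.40 and -2.23 in uMT_Ca+IgG aortas, against -0.40, -0.99 and -0.54 in uMT_Ca aortas. Acads had -1.18, -1.10 and -2.84 in uMT_Ca+IgG aortas, against -1.17, -1.13 and -1.10 in uMT_Ca aortas. Crat had -3.31, -3.63 and -5.28 in uMT_Ca+IgG aortas, against -3.54, -3.42 and -3.76 in uMT_Ca aortas. For each of the 3 genes uMT_Ca+IgG replicates 1 and 2 lay close to or within the uMT_Ca range and replicate 3 lay below it. Cpt1b had -3.36, -3.59 and -1.63 in uMT_Ca+IgG aortas, against -2.85, -3.49 and -3.06 in uMT_Ca aortas, with replicate 3 on the high side. Its other probe had -2.84 on that array, inside its uMT_Ca range of -3.59 to -2.58, so the outlying value belongs to 1 probe. Without that array the members' median in this comparison was 0.08, and still no member was called.

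The remaining genes of the set followed on every array were close between the CaCl2 groups. Acsl1 had 2.32, 2.46 and 1.94 in uMT_Ca+IgG aortas, and its change against uMT_Ca was -0.27 with a 95% interval of -0.78 to 0.24. Ppara had -0.58, -0.91 and -0.42, and Ppard 0.44, 0.48 and 0.53, in uMT_Ca+IgG aortas, with changes against uMT_Ca of 0.21 (-0.22 to 0.64) and -0.20 (-0.53 to 0.12). Both receptors overlapped between the CaCl2 groups. Acadm had 3.39, 3.54 and 3.40, and Acadvl 4.41, 4.30 and 4.04, in uMT_Ca+IgG aortas, with changes of -0.09 (-0.42 to 0.24) and 0.05 (-0.30 to 0.39). Hadha had 0.94, 0.76 and 0.74, and Ehhadh -1.27, -1.56 and -1.90, in the same aortas, with changes of -0.13 (-0.41 to 0.14) and 0.16 (-0.35 to 0.68). Cpt1a had 2.81, 3.09 and 3.01, and Cpt2 2.47, 2.32 and 1.85, with changes of -0.06 and 0.16. None of these ranges was separate from that of uMT_Ca.

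**Figure D4:**
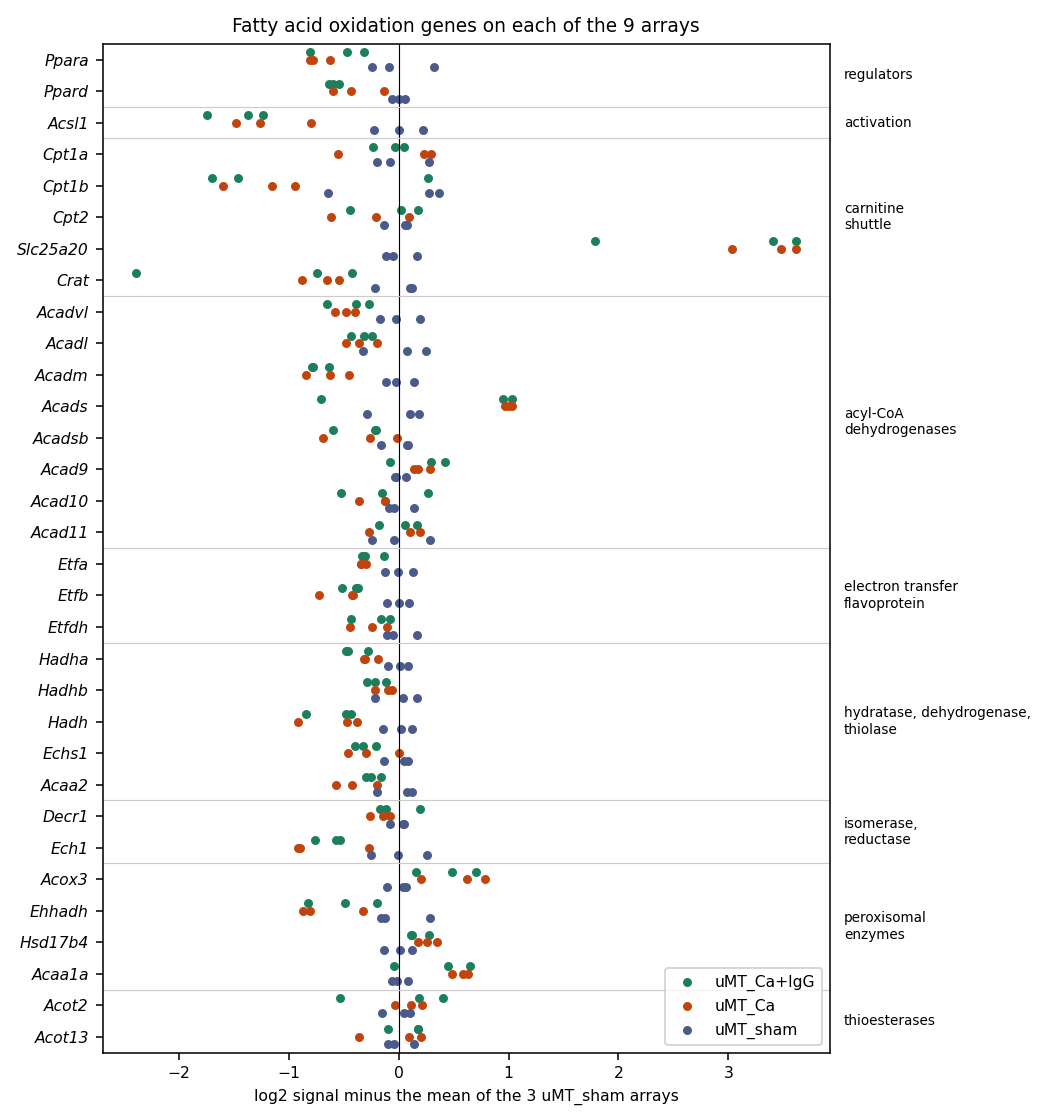
Log2 signal of the 32 members on each of the 9 arrays, as the difference from the mean of the 3 uMT_sham arrays (x axis), by role. Slc25a20 is far to the right and Acsl1 to the left on all CaCl2 arrays, and uMT_Ca+IgG replicate 3 is the lone green point for Slc25a20, Crat, Cpt1b and Acads.

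Set against the sham arrays, which also served as the control of uMT_Ca, uMT_Ca+IgG aortas had 7 called members. Slc25a20 was higher at 2.94 ± 0.44 (limma adjusted p = 0.00224), where 14.7% of all genes were called higher, with the same limit of a dim sham level. With no filter its adjusted p was 0.00440, and with the normexp background its change was 1.22. The 6 called lower were Acsl1 at -1.45 ± 0.22 (adjusted p = 0.00254), Acadm at -0.73 ± 0.14 (adjusted p = 0.00713), Ppard at -0.59 ± 0.14 (adjusted p = 0.0164), Hadh at -0.58 (adjusted p = 0.0467), Etfb at -0.43 (adjusted p = 0.0451) and Hadha at -0.40 (adjusted p = 0.0375). The calls of Acsl1, Acadm and Ppard were kept in 20, 19 and 16 of 21 alternatives, and those of Hadh, Etfb and Hadha in 5, 5 and 6. That count stands beside 14.2% of all genes called lower. The groups did not overlap for 16 members, 14 lower and 2 higher, against 44.2% of all genes, and the medians were -0.25 for the members and -0.10 for all genes. Under median scaling Slc25a20 at 3.18 and Acsl1 at -1.22 passed, where 13% of all genes were called higher and 5.14% lower, and the medians were -0.01 for the members and 0.14 for all genes.

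Leaving out uMT_Ca+IgG replicate 3 raised the count to 11 members, 3 higher and 8 lower, with Acads, Acaa1a, Ppara, Cpt1b and Crat added and Hadha lost. The calls over all genes rose too, from 4790 to 6728, with 18.4% of all genes higher and 22.1% lower. With the mean of all kept probes Cpt1b was also called lower, at -1.22 (limma adjusted p = 0.0438). Leaving out uMT_sham replicate 2 or uMT_Ca+IgG replicate 2 left 3 member calls, with 3306 and 3022 of all genes called. Leaving out uMT_sham replicate 1, uMT_sham replicate 3 or uMT_Ca replicate 3 left 4, with 3656, 3264 and 4657 of all genes called.

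Genes next to the list in the pathway were read in the same fit of uMT_Ca against uMT_sham. In this fit 17.3% of all genes were called higher and 19% lower. Of 37 further enzymes and transporters of fatty acid oxidation, 34 were measured, 4 rose, 6 fell and 24 did not pass, with a median change of -0.04. The called genes with the largest changes were Fabp3, the muscle-type fatty acid binding protein, at -2.32 ± 0.25, the peroxisomal transporter Abcd2 at 1.85 ± 0.41, the transport protein Slc27a4 at -1.30 ± 0.30 and the acyl-CoA synthetase Acsl5 at 1.00 ± 0.16. Acsl1 and Acsl5 catalyse the same reaction and were called in opposite directions. Median scaling turned the balance of that list, to 7 higher and 2 lower with a median of 0.43. Under it 22.1% of all genes were called higher and 6.55% lower. Fabp3 and Slc27a4 passed under median scaling as lower, and Abcd2 and Acsl5 as higher.

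Of 14 partners, coactivators and known targets of PPAR, 11 were measured, 2 rose, 1 fell and 8 did not pass, against 4 higher and 0 lower under median scaling. The 2 that rose were Ucp3, a mitochondrial carrier, at 1.72 ± 0.33 and Pparg at 0.83 ± 0.26, and both were also called higher under median scaling. The 1 that fell is not named here, and it was not called lower under median scaling. Of 17 genes of mitochondrial content, 0 rose and 4 fell, where 17.3% of all genes were called higher and 19% lower. Among the 4 were Ogdh at -0.73, Cox4i1 at -0.43 and Atp5b at -0.39. The median of the 17 was -0.30, beside -0.27 for the 32 members and -0.08 for all genes. None of the 17 passed under median scaling, where the signs of Cox4i1 and Atp5b turned to 0.04 and 0.08. Of 16 genes of peroxisome biogenesis and content, Pex10 rose at 1.49 ± 0.35, Cat, the peroxisomal catalase, fell at -1.64 ± 0.55, and the median was 0.02. Cat was not called under median scaling.

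Markers of several cell types moved with the groups, and in bulk tissue fewer cells of a type and less RNA per cell cannot be told apart. Beside the counts below, 19% of all genes were called lower and 17.3% higher in uMT_Ca against uMT_sham. The summed level of the 12 smooth muscle markers, in units of the 75th percentile, was 950 to 1281 in uMT_Ca+IgG, 858 to 1414 in uMT_Ca and 2946 to 3339 in uMT_sham. All 12 fell in uMT_Ca, led by Myocd at -2.82, Des at -2.40 and Myh11 at -2.37. The 11 macrophage markers summed to 332 to 425 in uMT_Ca+IgG, 292 to 370 in uMT_Ca and 231 to 245 in uMT_sham. Of these, 8 rose in uMT_Ca, led by Cx3cr1 at 4.48, Lyz2 at 3.35 and Cd14 at 3.32, while Itgam fell. Under median scaling 9 macrophage markers were called higher and 0 lower, so the fall of Itgam was not called there. The 8 fibroblast markers summed to 2067 to 2431 in uMT_Ca+IgG, 1908 to 2234 in uMT_Ca and 1382 to 1745 in uMT_sham, and 4 rose, led by Dpt at 4.91, Lum at 1.79 and Col3a1 at 0.91.

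Tissues around the aorta that burn or store fat were also checked. The 9 white adipocyte markers summed to 45.8 to 109 in uMT_Ca+IgG, 59.8 to 149 in uMT_Ca and 128 to 266 in uMT_sham, with Lep not well above background in any group. Of the 8 measured, Fabp4 at -0.79 and Pnpla2 at -0.69 fell in uMT_Ca, and neither was called under median scaling. The other 6 did not pass, and the median change of the 8 was -1.43, or -0.96 under median scaling. In uMT_Ca+IgG against uMT_sham 6 of the 8 were called lower, where 14.2% of all genes were, with a median of -2.26. Under median scaling 4 of the 8 were called lower there, where 5.14% of all genes were. The 9 brown adipocyte markers summed to 4.75 to 5.51 in uMT_Ca+IgG, 5.09 to 5.71 in uMT_Ca and 8.81 to 9.67 in uMT_sham, with Ucp1 and Elovl3 not well above background in any group. Of the 7 measured, Cidea at -2.07, Otop1 at -1.87 and Prdm16 at -1.71 fell and Dio2 at 1.87 rose. The 14 skeletal muscle markers summed to 9.94 to 10.6 in uMT_Ca+IgG, 7.60 to 16.9 in uMT_Ca and 43.4 to 55.0 in uMT_sham, with Ckm, Myh4 and Mb not well above background in any group. Of the 8 measured, 4 fell, among them Tnnc2 at -2.98 and Acta1 at -2.48, and Tnni2 rose at 1.92. Under median scaling 2 skeletal muscle markers were called lower and 2 higher. Kidney tubule and adrenal cortex markers summed to less than 1 on every array, with 1 of 5 measured in each list, of which the adrenal Star rose at 1.84. The part of these shifts in the members' changes was not tested.

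**Figure D5:**
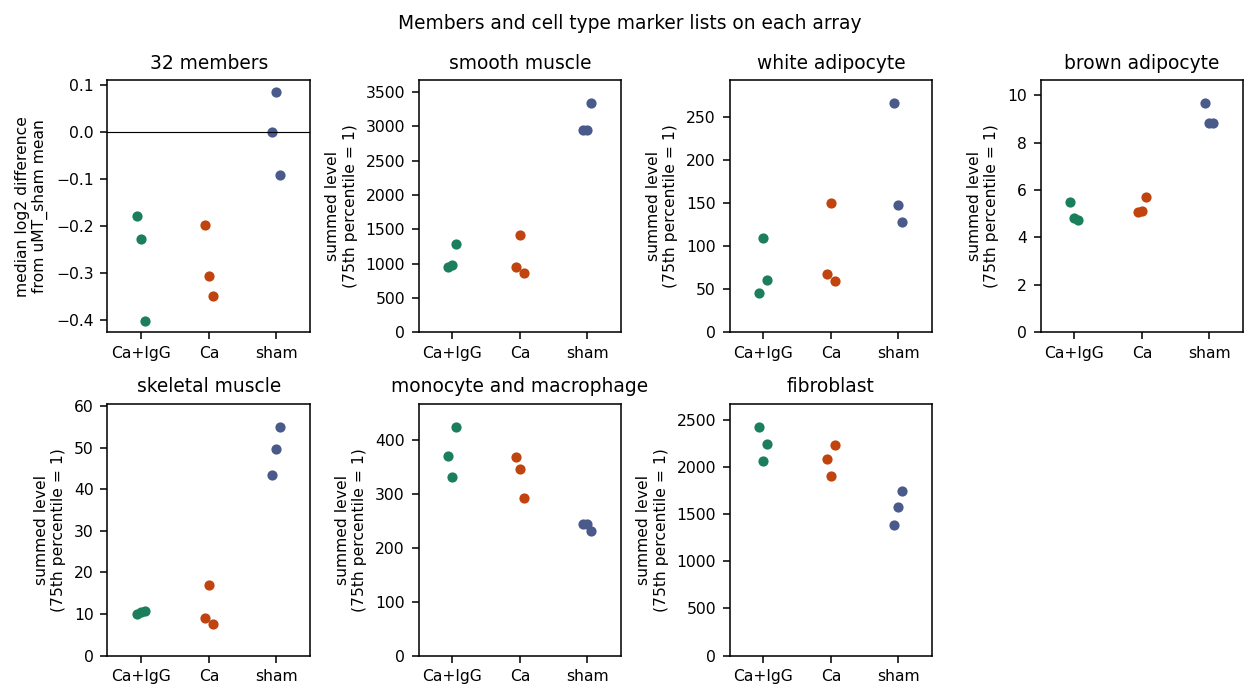
The median log2 difference of the 32 members from the uMT_sham mean (first panel) and the summed level of 6 marker lists in units of the 75th percentile (other panels), 1 point per array. The members' median is -0.40 to -0.18 in uMT_Ca+IgG, -0.35 to -0.20 in uMT_Ca and -0.09 to 0.08 in uMT_sham, and smooth muscle markers stand at 2946 or more in uMT_sham and at 1414 or less in both CaCl2 groups.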

How the data were processed

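Total RNA of 9 abdominal aorta samples was measured on SurePrint G3 Mouse arrays, labelled with Cy3. Groups and replicate numbers were read from the sample titles. The labels name different RNA purification kits (SV Total RNA Isolation and RNeasy), and which one served is unsettled. Scanner files as deposited give spot intensity on a linear scale, background-subtracted within each array by Feature Extraction 10.7.1.1, per the file headers; the submitters' processing notes name 9.5.1.1. The series table that the authors deposited gives intensity too. It served as an alternative and behaved as quantile-normalized values, by steps that no source used here gives. Columns not mapped to a sample numbered 0.

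Control and outlier spots were dropped, which cost 0 member values, and saturated spots numbered 0. From the log2 processed signal of each array the 75th percentile over its 59305 non-control spots was subtracted, and repeated spots were averaged per probe. A probe stayed in where every array of 1 or more groups was well above background, which left 32168 of 55681. Probes were named through RefSeq accession or symbol (assembly GRCm38.p6) or else the name in the files. A gene was represented by its brightest kept probe, and 9 of the 32 members had several probes, 43 in all. All 9 arrays entered 1 fit of 3 groups in limma 3.58.1 (R 4.3.3; lmFit, eBayes), with Benjamini-Hochberg adjustment over 16621 genes, and the procedure was tested on simulated data. The number of arrays limits the precision. Summed marker levels are sums of linear signals over the 75th percentile.

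The members and lists were chosen with earlier results of these data known. Named genes follow a rule: all members by role; values on every array for members called with a change of at least 1, for members whose direction turned with the scaling and which were called under either, and for Ppara, Ppard, Acsl1, Cpt1a, Cpt1b, Cpt2, Acadm, Acadvl, Hadha and Ehhadh; up to 4 called genes from each pathway list and up to 3 from each cell type list. Values on every array of Acads, Crat, Etfb, Acaa1a and Acox3, and the naming of further called list genes (Itgam, Dio2, Tnni2), were added after their values were seen. The alternatives were other scalings, normalizations, filters, probe summaries and fits, slide and slide row, and leaving out each array. Of these 22, keeping to the slide with 8 arrays and leaving out uMT_sham replicate 3 are the same fit, which leaves 21.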

Additional observations from a re-analysis of the deposited data

How the results depend on the processing

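No member was called in uMT_Ca+IgG against uMT_Ca under any of the 21 distinct alternatives. In uMT_Ca against uMT_sham the 10 calls (8 lower, 2 higher) became 3 (0 lower, 3 higher) under median scaling, 5 (0 lower, 5 higher) with no scaling, 3 (2 lower, 1 higher) with the slide row as a block and 5 (4 lower, 1 higher) on the slide with 8 arrays, that is, without uMT_sham replicate 3, with 3408 and 3921 genes called in the last 2. Calls of higher members numbered 1 with probes well above background on all 9 arrays, where Slc25a20 was not tested. The members' median of -0.27 turned to 0.20 under median scaling and 0.40 with no scaling; with no scaling the changes of Acadvl, Acadm, Etfb and Hadh turned to 0.18, 0.02, 0.14 and 0.08. Leaving out 1 array gave 4 to 13 calls, 3 to 10 lower and 1 to 3 higher, and 3921 to 7473 genes. In uMT_Ca+IgG against uMT_Ca the median of 0.00 became -0.23 under median scaling, -0.22 with no scaling and -0.06 to 0.08 leaving out 1 array, with 0 to 2 genes called. In uMT_Ca+IgG against uMT_sham the 7 calls (6 lower, 1 higher) became 2 (1 lower) under median scaling, 1 (0 lower) with no scaling, and 4 (3 lower) with no filter, with the slide row as a block and on the slide with 8 arrays; 0 were higher with probes well above background on all 9 arrays. Median scaling called 3019 genes. The median of -0.25 became -0.01 under median scaling, 0.20 with no scaling and -0.06 within row 1; with no scaling Etfb turned to 0.02 and Hadha to 0.04. Leaving out 1 array gave 3 to 11 calls, 2 to 8 lower and 1 to 3 higher, and 3022 to 6728 genes. The cause of these differences between settings was not tested.

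Within slide row 1 the members' median was -0.25 in uMT_Ca against uMT_sham (3 arrays against 1) and 0.11 in uMT_Ca+IgG against uMT_Ca (1 against 3). Within row 2 it was -0.34 in uMT_Ca+IgG against uMT_sham (2 against 2). The only uMT_sham array in row 1 was replicate 3, which lay on a slide and a scan of its own. Comparisons with uMT_sham within row 1 therefore also differ in slide and scan, and the 2 cannot be told apart from CaCl2 there. Replicate numbers are shared across groups in the labels, but same-numbered arrays did not deviate together (correlations of -0.198 to 0.225, median -0.0576, against -0.238 to 0.206, median 0.0392, for other pairs), so the numbers were not taken as pairs. The replicate block gave 7 member calls in uMT_Ca against uMT_sham, 1 of them higher, and 6 in uMT_Ca+IgG against uMT_sham. Signal over background limits Slc25a20 in the sham group and Crat on 1 uMT_Ca+IgG array. With 3 arrays per group, small changes of single members could be missed.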
